A study of Mus musculus with 24 samples.

Results

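A set of 10 genes around the BMP pathway was followed in muscle of young and adult mice after a burn, namely Id1, Id2, Id3, Id4, Smad6, Smad7, Smad9, Bmp4, Bmpr1a and Bmpr2. They were chosen by symbol, with earlier results of these data known, and make up 10 of the 55401 genes in the deposited count values. Gastrocnemius muscle, which lies far from the burned skin of the trunk, was taken from male C57BL6 mice 24 h after the procedure. Young mice arrived at 4 weeks and were burned at 5 weeks of age, and adult mice arrived at 10 weeks and were burned at 11 weeks. The groups, adult burn, adult sham, young burn and young sham, held 3 mice each and gave 3 libraries of poly-A RNA. All mice were given isoflurane as anesthetic and buprenorphine against pain. Burned mice received a scald over 25% of the body surface on back and belly and intraperitoneal lactated Ringer's solution, whereas sham mice received neither scald nor resuscitation. Burn and resuscitation can thus not be told apart in these groups.

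BMPs are secreted ligands that bring type I and type II receptors together at the cell surface. The type I receptor then phosphorylates SMAD1, SMAD5 or SMAD9, which join SMAD4 and enter the nucleus, where the Id genes are among the best known direct targets. ID proteins carry a helix-loop-helix but no DNA-binding region, and they hold back E proteins and myogenic factors such as MYOD by pairing with them. Smad6 and Smad7 are also targets, and their products feed back on the pathway by blocking receptors. In muscle, BMP signaling is known to support fiber mass, and Id genes are also strongly used by endothelial cells and by proliferating muscle progenitors.

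SMAD complexes of the BMP branch read GC-rich letters such as GGCGCC and GGAGCC, and SMAD4 reads GTCTG, so the start regions of the Id genes were searched for these letters on both strands. Reference promoters from RefSeq (GRCm38.p6) matched 8 of the 10 genes, all but Id1 and Smad7. In the 250 bases before the start, GGCGCC was found in Bmpr2, Smad9, Id2, Id4 and Bmpr1a, and GGAGCC in Smad9, Id3, Smad6, Id2, Id4 and Bmp4. GTCTG was found in Id3 alone among the 8, at 2 places. Over 32851 reference promoters, 9.59% held GGCGCC, 26.0% held GGAGCC and 42.2% held GTCTG, and none of the 8 genes held the spaced forms GGCGCCNNNNNGTCTG or GGAGCCNNNNNGTCTG, which stood in 0.0274% and 0.0304% of them. The following stretches are shown because they belong to the 3 Id genes with an entry, with the matched letters in capitals. Id4 is shown over all 250 bases before its start, Id2 over the 89 bases farthest from its start, and Id3 over 30 bases around each GTCTG match.
Id4, chr13:48260866-48261115, plus strand: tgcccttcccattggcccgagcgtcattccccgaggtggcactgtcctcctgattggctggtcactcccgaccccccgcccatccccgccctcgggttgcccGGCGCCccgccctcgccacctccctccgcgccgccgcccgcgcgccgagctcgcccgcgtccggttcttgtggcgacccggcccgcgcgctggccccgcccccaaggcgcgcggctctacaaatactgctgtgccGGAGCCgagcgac
Id2, chr12:25096254-25096342, minus strand: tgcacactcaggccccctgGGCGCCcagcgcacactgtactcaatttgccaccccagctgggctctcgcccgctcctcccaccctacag
Id3, chr4:136143643-136143672, plus strand: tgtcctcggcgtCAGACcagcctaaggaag
Id3, chr4:136143742-136143771, plus strand: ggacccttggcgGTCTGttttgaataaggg
In Id4, GGCGCC began 148 and GGAGCC 13 bases before the start, and in Id2 GGCGCC began 231 bases before it. The Id3 matches began 167 bases before the start on the reverse strand and 68 bases before it on the forward strand. These starts are those of RefSeq and differ from the Gencode gene starts given with each gene below. The windows of Id2 and Id3 lie inside the Gencode genes, downstream of their starts, and that of Id4 lies upstream. A match describes the letters only.

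The libraries held 4392605 to 5688512 counts. Levels are given as CPM, counts relative to library size after TMM normalization, which scales libraries to each other. The 10 muscle fiber markers summed to between 106960 and 217621 CPM per library, so that the labelled tissue was found in each. The RNA quality report of the study gives no integrity number for any sample. Its ribosomal RNA ratios were highest in adult sham replicates 1 and 3 and lowest in young sham replicates 2 and 3. A part of RNA quality in the differences between ages was not tested. Young burn replicate 2 stood apart, with a root mean square log2 deviation from its group of 0.444, against 0.216 to 0.303 in the other 11 libraries. The heatmap of the study leaves 1 young burn animal out and shows the numbers 1 and 3 of this group. Tests are accordingly given for 11 libraries without replicate 2 (12651 genes tested), followed by those for the full 12 (12408 genes tested). All groups were fitted at once with edgeR's quasi-likelihood test, and genes with a p under 0.05 after Benjamini-Hochberg adjustment over all tested genes count as called. Of the 10 genes, 9 had enough counts to be tested, and Smad9 did not.

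Per kb of exon, which allows genes to be compared with each other, Id3 had the highest level of the 10 with a mean over the 12 libraries of 20.6 CPM per kb. Id1 followed with 19.0 and Bmpr1a with 16.4 CPM per kb. Bmp4 (6.41), Bmpr2 (5.98), Id2 (3.70), Smad6 (2.80), Smad7 (2.45) and Id4 (0.772 CPM per kb) lay below, and Smad9 had 0.0575 CPM per kb. Among all tested genes Id3 stood at percentile 85.5 and Id4 at percentile 12.3 of this level. In young burn the mean of Id1 (35.5 CPM per kb) was above that of Id3 (32.3), whereas in the other groups Id3 was above Id1.

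Id1 and Id3 rose after burn in young mice, and neither passed the test after burn in adult mice. Id1 (ENSMUSG00000042745.9, chr2:152736251-152737410 on GRCm38, plus strand), whose product restrains differentiation in many progenitors and marks activated endothelium, had 50.7, 27.2 and 45.8 CPM in young burn replicates 1, 2 and 3. The young sham libraries had 11.2, 13.0 and 19.5 CPM. Adult burn libraries had 20.6, 8.49 and 19.9 CPM, and adult sham libraries 21.3, 14.7 and 12.3 CPM. All 3 young burn libraries were above the other 9, replicate 2 by the smallest margin. These are values of whole muscle, in which more cells of a type and more RNA per cell cannot be told apart, likewise fewer cells and less RNA per cell. Young burn against young sham gave a log2 fold change of 1.75 ± 0.29 (SE; 95% interval 1.13 to 2.36; adjusted p = 0.0189), a 3.36-fold difference, in the 11 libraries. With all 12 it was 1.504 ± 0.33 (adjusted p = 0.0686), so that the call for Id1 was lost. In the 11 libraries it was also lost without young burn replicate 1 (adjusted p = 0.0672), young burn replicate 3 (adjusted p = 0.146) or young sham replicate 2 (adjusted p = 0.0935).

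Id3 (ENSMUSG00000007872.3, chr4:136143497-136145755, plus strand), a close relative of Id1 with overlapping roles, had 62.5, 48.2 and 62.7 CPM in young burn. The young sham libraries lay close together at 29.5, 28.2 and 29.0 CPM. Adult burn had 36.2, 24.9 and 32.5 CPM and adult sham 33.7, 26.3 and 28.6 CPM. As with Id1, each young burn library exceeded every other library, and the 3 other groups overlapped. For Id3 this comparison gave a log2 fold change of 1.13 ± 0.15 (SE; 95% interval 0.82 to 1.44; adjusted p = 0.00519), or 2.19-fold, in the 11 libraries. With all 12 it was 1.00 ± 0.16 (adjusted p = 0.0355), and without young burn replicate 3, which leaves 1 young burn library in the 11-library fit, the call was lost (adjusted p = 0.0977). The stretches around GTCTG shown above belong to this gene.

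**Figure D1:**
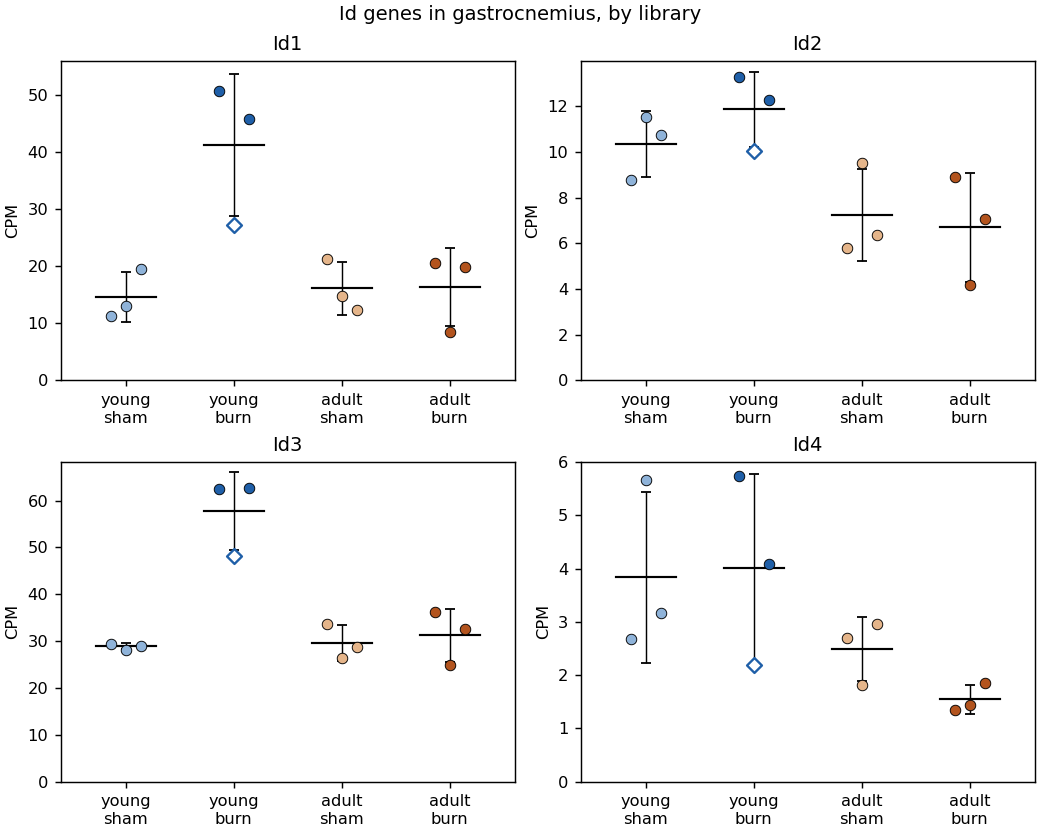
Normalized level (CPM, linear axis from 0) of Id1, Id2, Id3 and Id4 in each library of the 4 groups, with the group mean as a bar and the SD over 3 libraries as an error bar. The open diamond is young burn replicate 2; for Id1 and Id3 all 3 young burn libraries sit above the other 9, with Id3 at 48.2 to 62.7 CPM against 24.9 to 36.2 CPM elsewhere.

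Of the 9 tested genes, 2 were called in young burn against young sham, both higher, where 0.458% of all tested genes were called higher. As the genes were chosen with earlier results of these data known, such counts describe them and are no test of the set. With all 12 libraries it was Id3 alone, where 0.0564% of all tested genes were called higher. CPM ranges of these groups did not overlap, young burn higher, for Id1, Id2, Id3 and Bmpr2 in the 11 libraries, as for 16.7% of all tested genes, and for Id1 and Id3 in the 12. In adult burn against adult sham edgeR called 0 of the 9, where 0.909% of all tested genes were called. At an unadjusted p under 0.05 that count was also 0, against 1731 of the 12651 tested genes. DESeq2 called 0 of the 9 with 11 and with 12 libraries, where it called 210 of 9023 and 7 of 28519 genes. The 9 log2 fold changes had a median of 0.31 in young mice, against 0.0095 over all tested genes, and 0.0125 in adult mice, against -0.0037 over all tested genes. With all 12 libraries the medians were 0.19 in young and 0.016 in adult mice, against 0.0090 and 0.00046 over all tested genes. After burn in adult mice the Id1 log2 fold change was 0.02 (95% interval -0.59 to 0.62) and that of Id3 0.08 (95% interval -0.22 to 0.37).

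The difference between both burn effects was tested by the burn by age interaction. Its log2 value was 1.73 ± 0.41 (SE) for Id1 and 1.05 ± 0.20 for Id3, and neither was called in the 11 libraries (adjusted p = 0.198 and 0.0722). edgeR called 0 of the 9 genes, where 0.0949% of all tested genes were called. An unadjusted p under 0.05 was reached by 2 of the 9, and by 1410 of the 12651 tested genes. DESeq2 called both Id1 (adjusted p = 0.0225) and Id3 (adjusted p = 0.0105) in the 11 libraries and neither in the 12. Over all genes given an adjusted p, DESeq2 called 46 of 6302 in the 11 libraries and 1 of 28519 in the 12. With edgeR and all 12 libraries the interaction was 1.48 for Id1 and 0.92 for Id3, each with an adjusted p of 0.683. Other edgeR settings did call it, for Id3 when scaled by library size alone (adjusted p = 0.0467) or without adult burn replicate 1 (adjusted p = 0.0288), and for both genes without the filter on low counts. Whether the response of Id1 and Id3 to burn differed between ages thus depended on these settings. The burn term in a model with age gave a log2 value of 0.87 for Id1 (adjusted p = 0.139) and 0.57 for Id3 (adjusted p = 0.0879). Of the 9 genes edgeR called 0 for this term, where 2.15% of all tested genes were called. An unadjusted p under 0.05 was reached by 2 of the 9, and by 2101 of the 12651 tested genes. DESeq2 called 1 of the 9 in the 11 libraries, where it called 389 of 12286 genes. In the 12 libraries it called 0 of the 9, and 357 of 13023 genes.

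Between the burned groups all 4 Id genes were called higher in young mice in the 11 libraries. Id2 (ENSMUSG00000020644.9, chr12:25093799-25097140, minus strand), which also restrains E proteins and is widely used in lymphoid and muscle cells, had 13.3, 10.0 and 12.3 CPM in young burn and 8.89, 4.16 and 7.05 CPM in adult burn. It had 8.77, 11.5 and 10.7 CPM in young sham and 5.79, 9.52 and 6.36 CPM in adult sham. The burned groups did not overlap, whereas young burn replicate 2 lay within the young sham range. Between the burned groups the log2 fold change of Id2 was 0.93 ± 0.27 (SE; adjusted p = 0.0252) in the 11 libraries. In the 12 it was 0.82 ± 0.26 (adjusted p = 0.0600). In the 11 libraries the call was lost without young burn replicate 1 (adjusted p = 0.142), young burn replicate 3 (0.0871), adult burn replicate 2 (0.0781) or adult burn replicate 3 (adjusted p = 0.0538). Its change after burn in young mice was 0.31 (95% interval -0.25 to 0.87).

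Id4 (ENSMUSG00000021379.2, chr13:48261228-48266026, plus strand), the family member best known from neural and germ cells, was the least abundant Id gene with 8 to 32 counts per library. It had 5.73, 2.19 and 4.09 CPM in young burn and 1.34, 1.45 and 1.86 CPM in adult burn. Young sham had 2.68, 5.67 and 3.17 CPM and adult sham 2.69, 1.81 and 2.97 CPM. Adult burn lay lowest, and young burn replicate 2 was the young burn library closest to it. For Id4, young burn against adult burn gave a log2 fold change of 1.67 ± 0.38 (SE; adjusted p = 0.00763) in the 11 libraries, and with all 12 it was 1.36 ± 0.41 (adjusted p = 0.0483). Without young burn replicate 1 the adjusted p in the 11-library fit was 0.103. Neither burn against sham passed the test, with log2 fold changes of 0.35 in young mice (95% interval -0.38 to 1.08) and -0.69 in adult mice (95% interval -1.53 to 0.15). Exons of Id4 overlap those of A330033J07Rik and Gm49291 on the other strand, and as the strand counted is not given, their reads cannot be told apart.

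Id1 and Id3 were also higher in young burn than in adult burn. The log2 fold change was 1.56 ± 0.28 (SE; adjusted p = 0.00184) for Id1 and 1.01 ± 0.14 (adjusted p = 0.000427) for Id3 in the 11 libraries. With all 12 libraries the values were 1.33 (adjusted p = 0.0203) and 0.89 (adjusted p = 0.00503). Thus 4 of the 9 tested genes were called, all higher in young burn, where 11.2% of all tested genes were called higher. With all 12 libraries 3 of the 9 were called, Id1, Id3 and Id4, where 5.98% of all tested genes were called higher. CPM ranges of the burned groups did not overlap for Id1, Id2, Id3 and Id4, young burn higher, in the 12 as in the 11 libraries, and 26.6% of all tested genes had such ranges in this direction in the 11.

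**Figure D2:**
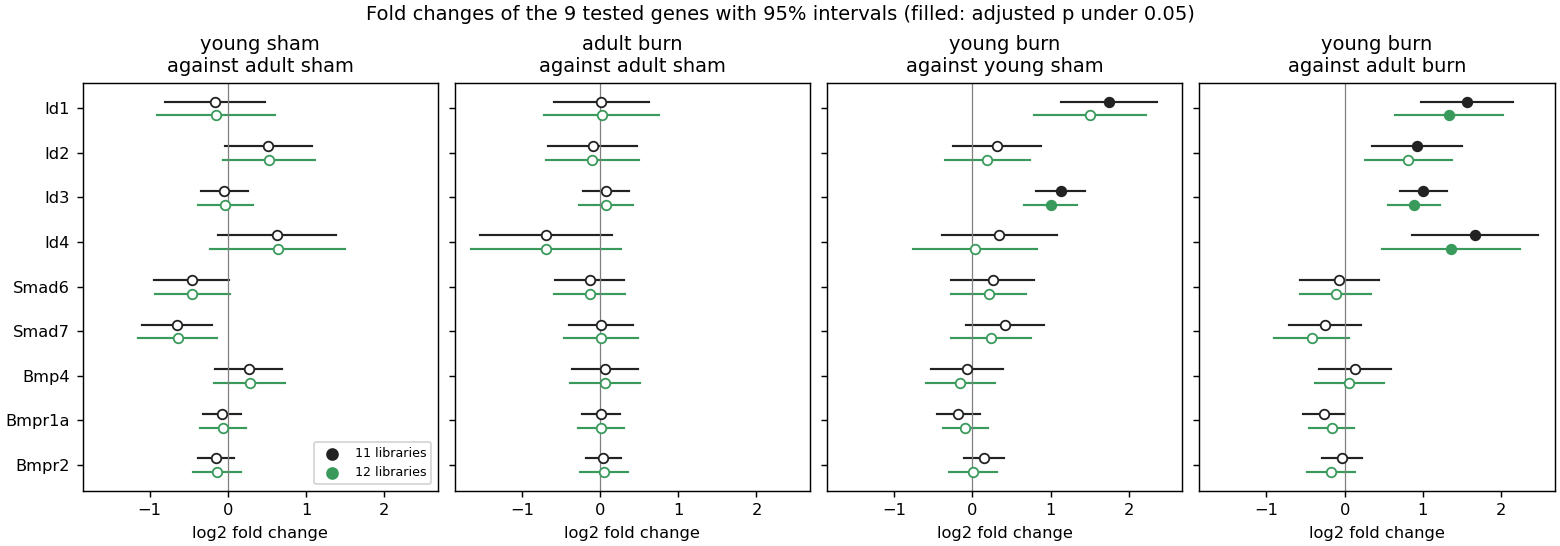
Log2 fold changes (horizontal axis) of the 9 tested genes with 95% intervals in 4 comparisons, for the 11 libraries without young burn replicate 2 (black) and for all 12 (green). Filled points have an adjusted p under 0.05; they are limited to Id genes, with Id1 at 1.75 and Id3 at 1.13 in young burn against young sham for the 11 libraries.

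Markers of other cell types moved with the Id genes in part, and their part in the Id results was not tested. The 10 endothelial markers summed to 784, 577 and 648 CPM in young burn and to 539, 524 and 708 CPM in young sham, which overlapped. They summed to 455 to 489 CPM in adult burn and 463 to 507 CPM in adult sham. Within young burn the endothelial sums ranked the libraries as Id1 did, with replicate 1 highest and replicate 2 lowest. Young sham replicate 3 was also the highest of its group for both. In adult burn, however, replicate 2 was highest for these sums and lowest for Id1. In young burn against young sham 1 of the 10 was called higher (Vwf, log2 fold change 0.91, adjusted p = 0.0220), where 0.458% of all tested genes were. An unadjusted p under 0.05 was reached by 6 of the 10, and by 2026 of the 12651 tested genes. The median of the 10 was 0.38 in the 11 and 0.21 in the 12 libraries. In young burn against adult burn 7 of the 10 were called higher, where 11.2% of all tested genes were, among them Emcn (1.11) and Cdh5 (0.74). The median there was 0.61 in the 11 and 0.55 in the 12 libraries. With all 12 libraries 0 and 4 of the 10 were called higher, where 0.0564% and 5.98% of all tested genes were.

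The 8 macrophage markers summed to 364, 422 and 605 CPM in young burn and to 211 to 284 CPM in young sham, without overlap. The sums were 256 to 343 CPM in adult burn and 201 to 240 CPM in adult sham. The complement genes C1qa (1.24), C1qb (1.10) and C1qc (1.07) were called higher in young burn against young sham, and 5 of the 8 were called higher in young burn against adult burn. Over all tested genes 0.458% and 11.2% were called higher in these comparisons. With all 12 libraries the counts were 0 and 5, where 0.0564% and 5.98% of all tested genes were called higher. Macrophage sums thus separated young burn from young sham as Id1 and Id3 did. They also separated adult burn from adult sham, with 0 of the 8 called, where Id1 and Id3 overlapped. Young burn replicate 3 was highest for the markers, whereas Id3 was nearly equal in replicates 3 and 1 (62.7 and 62.5 CPM) and Id1 was highest in replicate 1. Replicate 2 was the lowest young burn library for Id1 and Id3 but not for the macrophage markers. It was also the lowest young burn library for the sums of endothelial, pericyte and smooth muscle, fibroblast, satellite cell and muscle fiber markers.

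Of the 7 fibroblast markers 5, and of the 8 pericyte and smooth muscle markers 4, were called higher in young burn against adult burn, and 0 of either list was called in young burn against young sham. In the 12 libraries 3 and 2 were called higher in young burn against adult burn. Over all tested genes 11.2% were called higher there in the 11 and 5.98% in the 12 libraries. Fibroblast sums were 5916 to 7580 CPM in young burn, 6121 to 6486 CPM in young sham, 2655 to 3504 CPM in adult burn and 2596 to 3460 CPM in adult sham. Pericyte and smooth muscle sums were 1082 to 1491 CPM in young burn, 1207 to 1380 CPM in young sham, 930 to 992 CPM in adult burn and 1112 to 1167 CPM in adult sham. Neutrophil marker sums were higher after burn in both ages, without overlap, at 9.61 to 27.4 CPM in young burn against 1.82 to 4.14 CPM in young sham and 6.87 to 15.3 CPM in adult burn against 2.12 to 5.17 CPM in adult sham. Young burn replicate 2 was highest, and 1 of the 6 markers was at 0 in every library. Of the 2 tested, S100a9 was called higher in young burn against young sham (2.43, adjusted p = 0.0447), where 0.458% of all tested genes were. Both S100a8 (1.78) and S100a9 (2.07) were called for the burn term, where 2.15% of all tested genes were. Over the 12 libraries these counts were 0 and 1. Satellite cell markers summed to 70.3 to 105.9 CPM, with 0 of 6 called in young burn against young sham and 1 of 6 (Calcr, 1.70) called higher in young burn against adult burn, and 1 of the 6 (Chrdl2) also stands in the list of extracellular BMP inhibitors below.

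Muscle fiber markers also moved in the comparison in which Id1 and Id3 rose. Their sums were 106960 to 140829 CPM in young burn and 157490 to 217621 CPM in young sham, without overlap, against 132998 to 156341 CPM in adult burn and 132090 to 145318 CPM in adult sham. In young burn against young sham edgeR called 0 of the 10 in the 11 libraries, 9 had a log2 fold change below 0 and the median was -0.40. An unadjusted p under 0.05 was reached by 7 of the 10, and by 2026 of the 12651 tested genes. DESeq2 called 1 higher and 2 lower in the 11 libraries and 0 higher and 5 lower in the 12. Over all genes it called 191 of 9023 in the 11 and 440 of 9714 in the 12. In young burn against adult burn 2 were called higher and 2 lower by edgeR, where 20.7% of all tested genes were called.

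**Figure D3:**
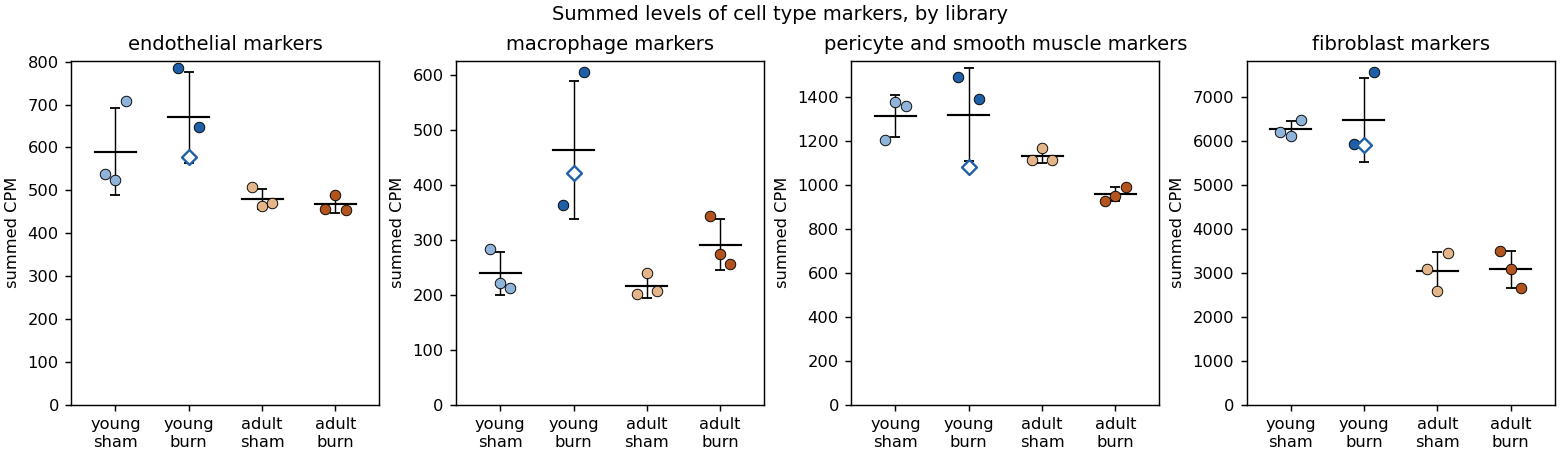
Summed CPM (linear axes from 0) of endothelial, macrophage, pericyte and smooth muscle, and fibroblast markers by library, with group means as bars and the SD over 3 libraries as error bars. The open diamond is young burn replicate 2; macrophage sums were 364 to 605 CPM in young burn against 211 to 284 CPM in young sham, whereas endothelial sums of these groups overlapped.

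Without injury the Id genes did not pass the test between ages. In young sham against adult sham the log2 fold changes were -0.17 for Id1 (95% interval -0.80 to 0.47), 0.52 for Id2 (-0.03 to 1.08), -0.05 for Id3 (-0.35 to 0.26) and 0.63 for Id4 (-0.12 to 1.38). The sham libraries of both ages overlapped for each of these genes. Of the 9 tested genes edgeR called 0 in this comparison, 1 had an unadjusted p under 0.05, and DESeq2 called 0 with 11 and with 12 libraries. Over all tested genes edgeR called 11.8%, and 3517 of the 12651 had an unadjusted p under 0.05. DESeq2 called 1154 of 12832 genes with 11 and 653 of 12479 with 12 libraries. The comparisons share the sham or burn libraries with one another, so that a high or low library moves more than 1 of them.

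Smad6 and Smad7, the inhibitory SMADs, had lower means in young sham than in adult sham and passed the test in no comparison. Smad7 (ENSMUSG00000025880.11, chr18:75367529-75395935, plus strand), which blocks receptors of both the BMP and the TGF-beta branch, was the one gene with an unadjusted p under 0.05 there. It had 10.96, 7.09 and 7.07 CPM in young sham and 14.1, 10.7 and 14.2 CPM in adult sham, where young sham replicate 1 overlapped with adult sham replicate 2. Between the sham groups its log2 fold change was -0.65 ± 0.21 (SE; adjusted p = 0.0585) in the 11 libraries, and with all 12 it was -0.64 ± 0.24 (adjusted p = 0.144). Without young sham replicate 1 it was -0.89 and passed the test (adjusted p = 0.0164). After burn Smad7 had 12.7, 7.49 and 9.20 CPM in young and 13.3, 13.9 and 12.3 CPM in adult mice, with log2 fold changes against sham of 0.42 (95% interval -0.09 to 0.92) and 0.01 (95% interval -0.40 to 0.42).

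Smad6 (ENSMUSG00000036867.7, chr9:63953076-64022059, minus strand), which acts mainly on the BMP branch, had 9.01, 7.90 and 5.61 CPM in young sham and 10.3, 9.52 and 11.03 CPM in adult sham. These ranges did not overlap, with young sham lower, as was the case for 15.4% of all tested genes. The log2 fold change was -0.46 ± 0.22 (SE; adjusted p = 0.193). Young burn had 9.85, 8.22 and 7.97 CPM and adult burn 9.39, 11.6 and 7.24 CPM, which overlapped. The change after burn was 0.26 (95% interval -0.27 to 0.79) in young and -0.13 (95% interval -0.58 to 0.31) in adult mice.

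Smad9 (ENSMUSG00000027796.2, chr3:54755582-54801257, plus strand), which encodes a receptor-activated SMAD, was close to the limit of detection, with 0 to 4 counts per library and 18 in all. The summed counts of a group were 3 in adult burn, 4 in adult sham, 6 in young burn and 5 in young sham. As CPM these are 0.178 (95% exact Poisson interval 0.037 to 0.519), 0.286 (0.078 to 0.733), 0.376 (0.138 to 0.819) and 0.380 (0.124 to 0.888). The intervals overlap and cover counting error only. A difference between groups was not detectable at this depth.

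Bmp4, Bmpr1a and Bmpr2 passed the test in none of the comparisons. Bmp4 (ENSMUSG00000021835.15, chr14:46383520-46390669, minus strand), the ligand, had 13.1, 13.0 and 17.4 CPM in young burn and 17.8, 14.4 and 16.1 CPM in young sham. Adult burn had 14.1, 16.3 and 11.1 CPM and adult sham 11.99, 10.7 and 17.0 CPM, so that all 4 groups overlapped. After burn its log2 fold change was -0.07 (95% interval -0.53 to 0.40) in young and 0.06 (95% interval -0.36 to 0.49) in adult mice. Its exons overlap those of Gm15217 on the other strand.

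Bmpr1a (ENSMUSG00000021796.15, chr14:34410734-34503341, minus strand), a type I receptor that phosphorylates the BMP SMADs, had 92.1, 110.3 and 89.1 CPM in young burn and 117.9, 95.8 and 96.8 CPM in young sham. Without young burn replicate 2 the young burn libraries lay below young sham and below adult burn, and with it the ranges overlapped in both comparisons. The share of all tested genes with such lower ranges was not counted. In the other direction it was 16.7% against young sham. The change after burn was -0.18 (95% interval -0.45 to 0.09) in young mice, and young burn against adult burn gave -0.26 (95% interval -0.53 to 0.01). Adult burn had 96.4, 114.2 and 116.2 CPM and adult sham 97.8, 115.3 and 110.9 CPM, with a change of 0.01 (95% interval -0.23 to 0.25). Exons of Bmpr1a overlap those of Gm17110 on the other strand.

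Bmpr2 (ENSMUSG00000067336.6, chr1:59763400-59879014, plus strand), the type II receptor that activates the type I receptor, had 114.5, 82.5 and 108.9 CPM in young burn and 106.9, 90.7 and 107.0 CPM in young sham. Replicate 2 was the lowest of all 12 libraries. Adult burn had 100.3, 127.4 and 118.2 CPM and adult sham 112.9, 115.6 and 106.3 CPM. The change was 0.15 (95% interval -0.10 to 0.41) in young and 0.04 (95% interval -0.18 to 0.27) in adult mice. With 397 to 705 counts per library, Bmpr1a and Bmpr2 had the narrowest intervals of the 9 tested genes, which leave out a change as large as that of Id3 in young mice.

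**Figure D4:**
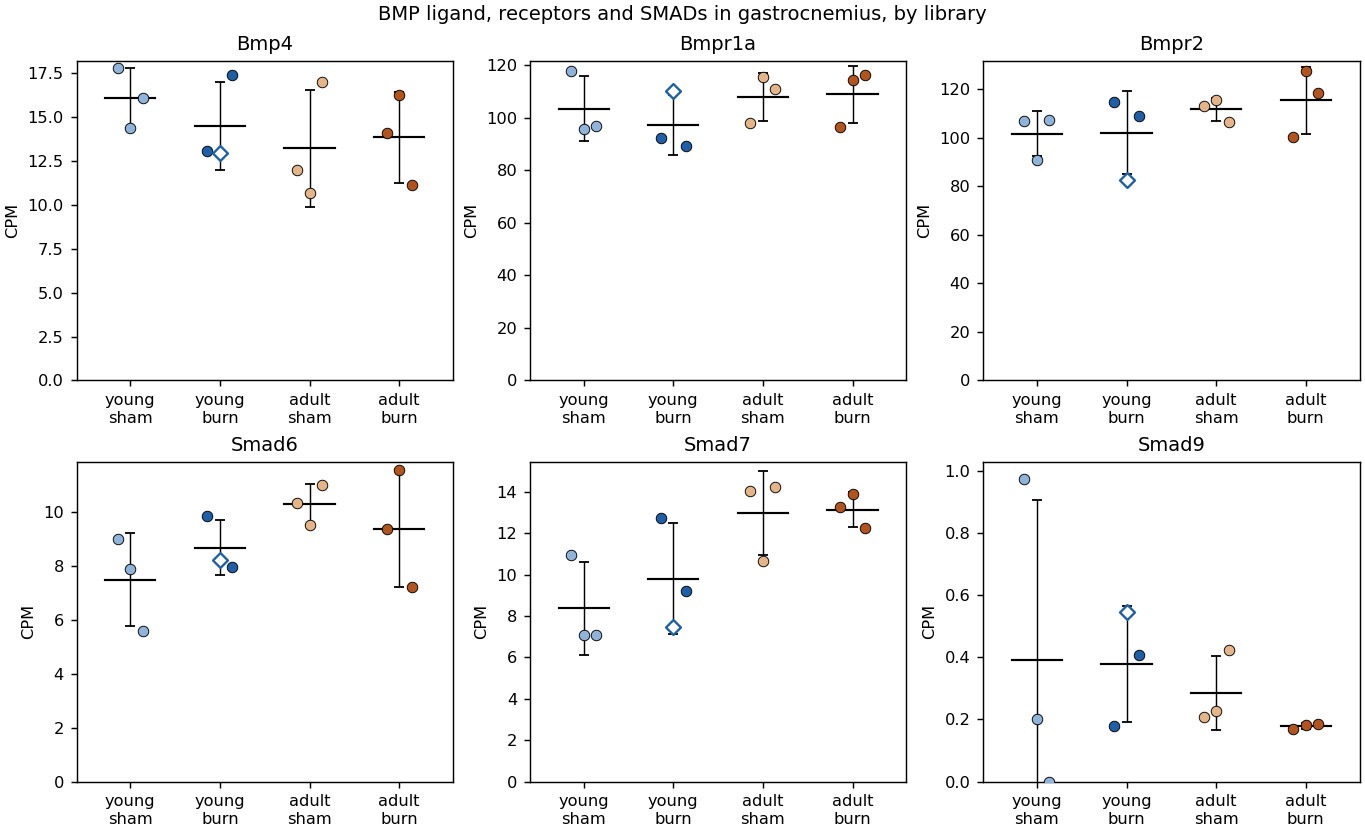
Normalized level (CPM, linear axes from 0, each with its own range) of Bmp4, Bmpr1a, Bmpr2, Smad6, Smad7 and Smad9 by library, with group means as bars and the SD over 3 libraries as error bars. The open diamond is young burn replicate 2, which is lowest for Bmpr2 at 82.5 CPM; Smad9 rests on 0 to 4 counts per library.

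Further genes of the pathway were read from 7 lists of 65 genes, of which 52 were tested. After burn in young mice edgeR called 0 of the 52. An unadjusted p under 0.05 was reached by 10 of them, and by 2026 of the 12651 tested genes. DESeq2 called 1 in the 11 and 2 in the 12 libraries, where it called 191 of 9023 and 440 of 9714 genes. After burn in adult mice 1 of the 52 was called, where 0.909% of all tested genes were. The burn term with age also gave 1, where 2.15% of all tested genes were called. In young burn against adult burn 10 of the 52 were called higher and 6 lower, where 20.7% of all tested genes were called. In young sham against adult sham 6 were called higher and 3 lower, where the share of all tested genes was 11.8%. The interaction gave 0 calls, 8 genes with an unadjusted p under 0.05, and 0 calls by DESeq2 in the 11 and the 12 libraries. Over all tested genes 1410 of the 12651 had an unadjusted p under 0.05 for it. With all 12 libraries 51 of the 65 genes were tested. Of these, 8 were higher and 2 lower between the burned groups, where 1343 of the 12408 tested genes were called. Between the sham groups 4 were higher and 2 lower, where 467 of the 12408 were called. After burn 0 were called in either age, and 1 was called for the burn term. The median log2 fold change of the 52 was 0.11 after burn in young mice and -0.06 in adult mice, against 0.0095 and -0.0037 over all tested genes. With all 12 libraries the medians were 0.0085 in young and -0.055 in adult mice, against 0.0090 and 0.00046 over all tested genes. The shift in young mice was thus absent with all 12.

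Of the 12 further BMP ligands only 4 had enough counts to be tested, and none of these was called in any of the 6 comparisons. The other 8 reached at most 11 counts in any library. Among 9 receptors and co-receptors, all of them tested, the type I receptor gene Bmpr1b was lower in young sham than in adult sham, by a log2 fold change of -1.44 ± 0.25 (SE; adjusted p = 0.00287). It had 4.1, 5.5 and 4.4 CPM in young sham and 14.9, 13.8 and 9.3 CPM in adult sham, without overlap. In young burn it had 9.0, 4.4 and 9.4 CPM, where replicate 2 lay within the young sham range. After burn in young mice edgeR called 0 of the 9 receptors and co-receptors in the 11 libraries. An unadjusted p under 0.05 was reached by 5 of them, and by 2026 of the 12651 tested genes. The 9 log2 fold changes ran from -0.26 to 0.97 in the 11 libraries and from -0.52 to 0.68 in the 12. Acvr2a, a type II receptor for activins and BMPs, was lower in young burn than in adult burn (log2 fold change -0.59, adjusted p = 0.0107).

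The list of extracellular inhibitors holds genes whose products bind BMPs or related ligands outside the cell. Kcp among them is not established as a BMP inhibitor. This list gave 5 of the 10 higher calls of these lists between the burned groups and 3 of the 6 between the sham groups. Of 12 tested, 5 were higher in young burn than in adult burn and 0 lower, where 11.2% of all tested genes were called higher. In young sham against adult sham 3 were higher and 1 lower, where 11.8% of all tested genes were called in either direction. In the full 12 libraries 4 were higher between the burned groups, where 5.98% of all tested genes were called higher. Between the sham groups Fstl1 alone was then called (1.01, adjusted p = 0.0263), where 467 of the 12408 tested genes were. Fstl1, a secreted follistatin-like protein, had 482, 281 and 524 CPM in young burn and 235, 173 and 164 CPM in adult burn. Its log2 fold change was 1.40 ± 0.17 (SE; adjusted p = 0.000146) after burn and 1.00 ± 0.15 (adjusted p = 0.00116) between sham groups. Young burn replicate 2 was the lowest young burn library here as for the Id genes. Fst, the activin antagonist follistatin, was higher in young mice after burn (0.82, adjusted p = 0.0405) and after sham (1.11, adjusted p = 0.00876; 0.0616 with all 12 libraries). Kcp (0.96) and Nbl1 (0.72) were higher in young burn than in adult burn, and Crim1 was lower in young sham than in adult sham in the 11 libraries (-0.59, adjusted p = 0.0409) but not called with all 12 (adjusted p = 0.238).

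Among the 3 SMAD transducers Smad1, which carries the BMP signal, was higher in young mice. It had 31.5, 27.9 and 32.5 CPM in young burn, 34.1, 34.2 and 39.3 CPM in young sham, 17.4, 23.0 and 21.5 CPM in adult burn and 15.3, 18.1 and 19.7 CPM in adult sham. All 6 young libraries lay above all 6 adult libraries. The log2 fold change was 1.01 ± 0.13 (SE; adjusted p = 0.000519) between sham groups and 0.64 ± 0.14 (adjusted p = 0.00628) between burned groups, and -0.15 (95% interval -0.45 to 0.14) after burn in young mice, where Id1 and Id3 rose. Smad4, the shared partner of all receptor SMADs, was lower in young burn than in adult burn in the 11 libraries (-0.43, adjusted p = 0.0189) but was not called with all 12 (-0.34, adjusted p = 0.0928), and Smad5 was called in none of the 6 comparisons.

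Of 10 intracellular inhibitors, Bambi, a pseudoreceptor that lowers BMP signaling, was higher in young burn than in adult burn (1.56, adjusted p = 0.00932), and Lemd3, an inner nuclear membrane protein that binds SMADs, was lower (-0.66, adjusted p = 0.0188). Bambi was still called in the 12 libraries (1.42, adjusted p = 0.0229), whereas Lemd3 was not (-0.36, adjusted p = 0.295), with 30.9 CPM in young burn replicate 2 against 16.1 and 20.2 CPM in the other young burn libraries. The other 8 were not called in any of the 6 comparisons. Bambi had 6.6, 4.7 and 6.3 CPM in young burn and 2.3, 1.1 and 3.2 CPM in adult burn.

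Of the 7 tested genes among other BMP targets, 1 was called higher and 2 lower in young burn against adult burn in the 11 libraries, where 20.7% of all tested genes were called. In adult burn against adult sham 1 was called, where 0.909% of all tested genes were. The burn term also gave 1 call, where 2.15% of all tested genes were called, and each other comparison gave 0. Tmem100, a membrane protein of endothelial cells downstream of ALK1, had 54.3, 76.6 and 107.5 CPM in adult burn and 45.5, 42.6 and 31.2 CPM in adult sham. The log2 fold change was 0.99 ± 0.21 (SE; adjusted p = 0.0419) in the 11 libraries, and with all 12 it was 1.00 ± 0.27 (adjusted p = 0.555), although young burn replicate 2 is in neither group and enters through the shared spread. In young mice it was 0.31 (95% interval -0.23 to 0.86), and Tmem100 was lower in young burn than in adult burn (-1.17, adjusted p = 0.00477), opposite in sign to the Id genes. Atoh8, a bHLH factor used in endothelium and muscle, had 8.7, 9.0 and 9.8 CPM in adult burn and 7.4, 4.5 and 4.2 CPM in adult sham, and 7.9, 15.3 and 9.6 CPM in young burn and 5.4, 3.2 and 5.6 CPM in young sham. Burned libraries exceeded sham libraries in both ages, and the burn term was 0.82 ± 0.18 (SE; adjusted p = 0.0304) in the 11 and 0.99 ± 0.21 (adjusted p = 0.0490) in the 12 libraries. Hey1, a transcriptional repressor shared with Notch signaling, was higher in young burn than in adult burn (0.83, adjusted p = 0.0286), and Fbxo30, a ubiquitin ligase held down by BMP signaling in muscle, was lower (-0.45, adjusted p = 0.0388), both in the 11 libraries. Neither call held with all 12. Hey1 then had 0.66 (adjusted p = 0.115), and the direction of Fbxo30 turned to 0.36 (adjusted p = 0.533), with 83.4 CPM in young burn replicate 2 against 26.5 and 24.3 CPM in the other young burn libraries and 29.5 to 40.7 CPM in adult burn.

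The bHLH factors listed as partners of ID proteins showed differences between ages. Pairing of each with ID proteins was not measured. Myog, which drives the late steps of muscle differentiation, had 44.3, 32.0 and 34.1 CPM in young burn, 12.7, 20.9 and 24.6 CPM in young sham, 8.4, 4.0 and 3.5 CPM in adult burn and 6.0, 5.7 and 6.2 CPM in adult sham. It was higher in young burn than in adult burn by 2.87 ± 0.28 (SE, log2; adjusted p = 3.38e-05) and in young sham than in adult sham by 1.69 ± 0.29 (adjusted p = 0.00246). After burn in young mice the value was 1.03 ± 0.25 and did not pass the test (adjusted p = 0.0743), although the young burn and young sham libraries did not overlap. Tcf4, an E protein, was higher in young mice in both comparisons (0.85 after burn, adjusted p = 0.000871, and 0.65 after sham, adjusted p = 0.00372). Myod1 was lower in young sham than in adult sham (-1.05, adjusted p = 0.0160), and Myf6, the factor of mature fibers, was lower in young burn than in adult burn (-0.77, adjusted p = 0.0184). The Myf6 call was lost with all 12 libraries (-0.46, adjusted p = 0.233), where young burn replicate 2 had 325 CPM against 180.1 and 196 CPM in the other young burn libraries. After burn 0 of the 7 were called in either age.

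**Figure D5:**
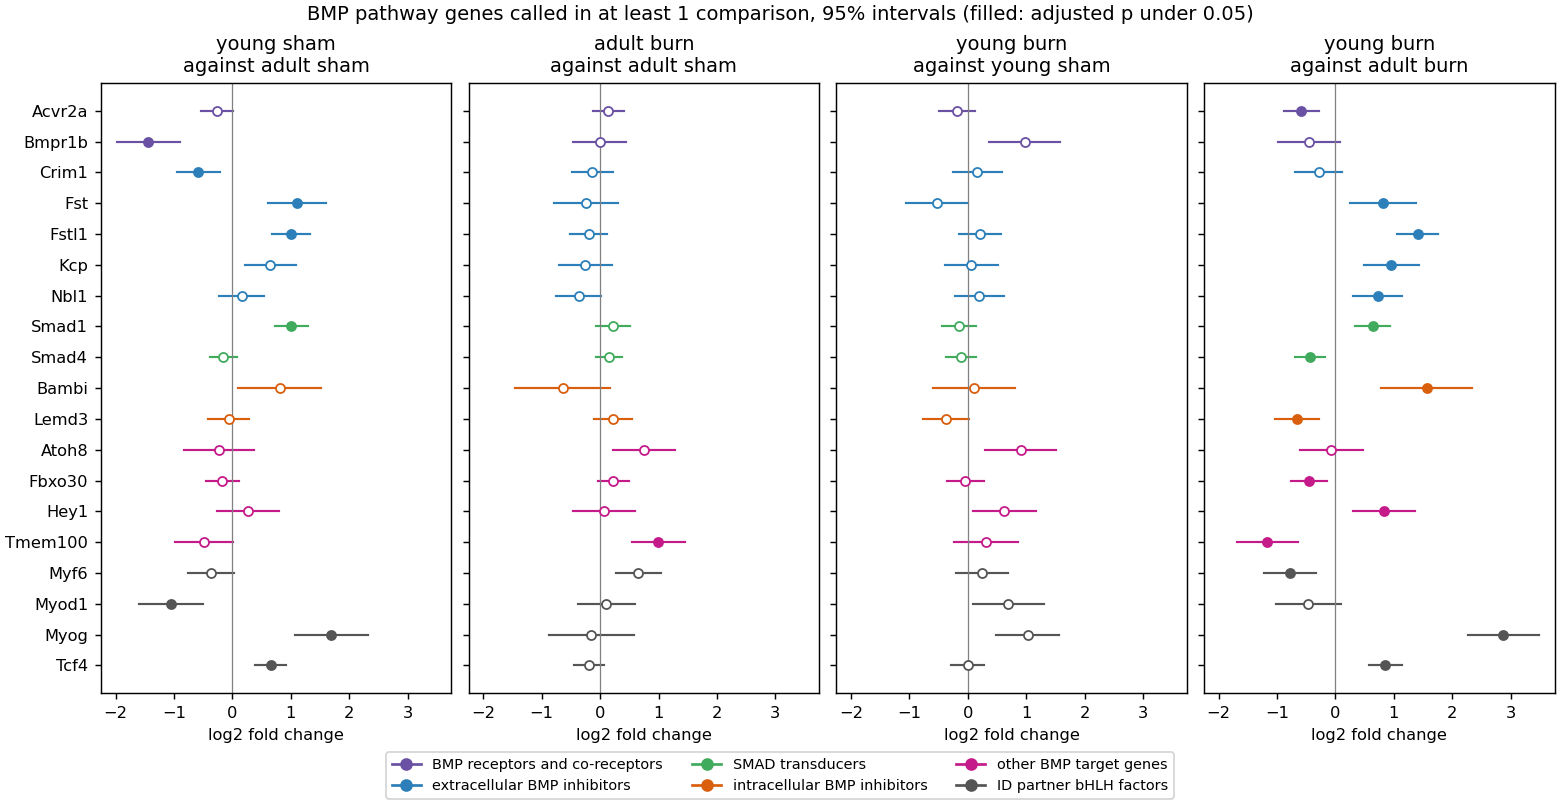
Log2 fold changes (horizontal axis) with 95% intervals of 19 further pathway genes called in at least 1 of the 6 comparisons, in the 11 libraries, colored by list, for 4 of the comparisons. Filled points have an adjusted p under 0.05; they are most frequent in young burn against adult burn, absent in young burn against young sham, and Myog lies farthest to the right at 2.87.

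Over the 12 libraries the level of Id1 followed that of Id3 most closely among the other tested members, with a Pearson r of log2 CPM of 0.94, and of 0.85 after the mean of each group was taken off. The libraries share depth and normalization, and these values describe them without a test. Smad6 and Smad7 had r = 0.77 (0.65 with groups centered). Bmpr1a ran against each Id gene, with r = -0.67 for Id1, -0.61 for Id4, -0.59 for Id3 and -0.55 for Id2. With groups centered these values were -0.68, -0.55, -0.67 and -0.37. Outside the 10 genes, those most like Id1 were Jak3 (r = 0.92), Dok4 (0.91), Cyp2j6 (0.89), Cyba (0.88) and Gpr137 (0.87), of which Cyba kept the highest value with groups centered (0.84). Those most like Id3 were Stx2 (0.94), Dok4 (0.94), Coro1b (0.92), Cyth4 (0.91) and Ly6e (0.90), of which Ly6e fell to 0.46 with groups centered. Dok4 stood in both lists.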

How the data were processed

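The authors' poly-A counts were used. Per the submitters' processing notes, bcl2fastq 2.20 and STAR 2.7.5c were applied with the GRCm38 build, and counts per gene were made with STAR's GeneCounts option on Gencode annotation. The deposited values are raw counts, without normalization. The sources used here do not name the strand. The small RNA libraries were not used here. Positions and exon lengths were taken from Gencode annotation of the same build, in which 260 genes had no match.

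Counts were analyzed in R 4.3.3 with edgeR 4.0.16 (TMM, filterByExpr at min.count 10 and min.total.count 15, quasi-likelihood test, two-sided, Benjamini-Hochberg adjustment over all genes tested), after the script had been tested on simulated data. DESeq2 1.42.0 was an alternative. Figures were drawn with matplotlib 3.10.9. Log2 CPM used a prior count of 2. Replicate numbers were not taken to pair mice, since none of the sources ties them.

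The members, the lists and the tests were chosen with earlier results of these data known. All 10 members are named, pathway genes where called in at least 1 of 6 comparisons in the 11 libraries, and the 5 genes most like Id1 and Id3 by Pearson correlation. Values of 1 pathway gene are not reported here, though it enters the counts of its list.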

Additional observations from a re-analysis of the deposited data

How the results depend on the processing

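The call of Id3 in young burn against young sham held in both tools, with 11 and with 12 libraries and with every scaling tried, and was lost only without young burn replicate 3. The number of the 9 genes called in that comparison fell from 2 to 1 with all 12 libraries and to 1 with a replicate block, in the 11 and in the 12 libraries, and ranged from 0 to 2 as single libraries were left out. Same-numbered libraries did not deviate together (median r = -0.003 over 15 pairs, 2 of them over 0.1). In the replicate block fit Id1 had an adjusted p of 0.0623 with 11 and 0.0740 with 12 libraries, and its change in adult mice had the other sign (-0.014 and -0.031). Between the burned groups, 2 genes (Id1 and Id3) were called by DESeq2 with 12 libraries and by the replicate block with 12, and 2 to 4 as single libraries were left out. The interaction counted 2 genes (Id1 and Id3) by DESeq2 with 11 libraries, 1 (Id3) when scaled by library size alone, 2 (Id1 and Id3) without a filter on low counts, and 0 to 1 over left-out libraries. The burn term counted 1 (Id3), by DESeq2 with 11 libraries, 2 without the filter, and 0 to 2 over left-out libraries. Between the sham groups 1 gene, Smad7, was called by library size alone and without the filter, and 0 to 1 over left-out libraries. Scaling by library size alone moved the median of all genes by -0.13 between the sham groups, by 0.16 after burn in young mice and by 0.18 in the interaction. Under it, Bmp4 changed by 0.090 after burn in young mice and Bmpr1a by -0.0037 after burn in adult mice, both opposite in sign to the main value and below that shift or near 0. The causes of these changes were not tested.

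Values near 0 changed sign as single libraries were left out. After burn in adult mice the ranges were -0.20 to 0.33 for Id1, -0.37 to 0.16 for Id2, -0.050 to 0.22 for Id3, -0.30 to 0.020 for Smad6, -0.11 to 0.080 for Smad7, -0.066 to 0.28 for Bmp4, -0.055 to 0.087 for Bmpr1a and -0.030 to 0.13 for Bmpr2. After burn in young mice the range was -0.28 to 0.13 for Bmp4. Between the burned groups they were -0.24 to 0.10 for Smad6, -0.080 to 0.33 for Bmp4 and -0.13 to 0.034 for Bmpr2, and between the sham groups -0.41 to 0.097 for Id1 and -0.11 to 0.064 for Id3. Where a group was left with 1 library, that library was assumed to vary like the other groups. Depth limits Smad9 (18 counts in all) and Id4 (8 to 32 per library).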
